A study of Mus musculus with 2 samples.

Results

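The cytosolic ribosomal protein genes were described here in splenic dendritic cells (DCs) of mice with and without MHC class II. They were taken from the gene list of the deposited count tables as every symbol that starts with Rpl or Rps and a digit, or with Rplp, together with Rpsa, leaving out the Rps6k kinases and symbols with a hyphen. This gave 86 of 32285 genes, 52 with large subunit names and 34 with small subunit names. Of these, 77 were the main gene of a ribosomal protein and 9 were paralogs or genes of a related name (Rpl3l, Rpl7l1, Rpl10l, Rpl22l1, Rpl36al, Rpl39l, Rps19bp1, Rps27l and Rps27rt). Rps19bp1 encodes a protein that binds Rps19 and is no ribosomal protein. UMIs were found for 85 of the 86 genes in each library, and 81 reached 50 CPM (a gene's UMIs scaled to a total of 1e6) in at least 1 library.

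scRNA-seq was done on live CD45.2+ CD11c+ cells sorted from the spleen after positive selection for CD11c. One library came from WT mice (H2-Aa +/+, littermates) and 1 from H2-Aa cit/cit mice, called mutant from here on. Each library pooled 3 naive female mice, given as 4 months old, and no file says which mouse a cell came from. The cit allele is a chemically induced splice-site change in H2-Aa, the gene for the α chain of the MHC class II molecule I-A. It is carried in every cell of the mouse, so a difference between the libraries is not tied to DCs alone. With 1 library per genotype no test between genotypes was possible. Intervals below cover counting error only, at 95%.

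A ribosome is built from a large and a small subunit, each made of ribosomal RNA and many small proteins that are needed in nearly equal numbers. The mRNAs of these proteins are among the most abundant of a cell and most begin with a 5′ terminal oligopyrimidine (TOP) tract, through which their translation follows mTOR signaling and nutrient supply. DCs are known to raise and then lower protein synthesis as they mature.

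There were 7814 WT cells with 51020804 UMIs in all and 11525 mutant cells with 72652201 UMIs, at median depths of 5492 and 5633 UMIs per cell. H2-Aa itself was at 5409.7 CPM in WT and at 66.2 CPM in mutant cells. Cells were assigned by summed UMIs of marker genes to 7 gates of interest. Values for all cells or the whole library also include cells of other lineages and the 1291 WT and 2601 mutant cells of no gate. The pDC gate, for plasmacytoid DCs, had Siglech at 766 CPM in WT and at 1049.7 CPM in mutant cells, against 30.1 and 11.7 CPM in the other cells. Xcr1 and Clec9a marked the cDC1 gate, Ccr7 and Fscn1 the mature gate, and Top2a the proliferating gate. Cells outside the mature gate held more of its markers in the WT than in the mutant library. Their Ccr7 CPM were 97.9 against 24.6 and their Fscn1 CPM 108.4 against 23.1. Inside the mature gate these were 887.9 against 735.7 for Ccr7 and 893.3 against 605.4 for Fscn1. Whether this let other WT cells pass the mature gate, or moved its ratios given below, was not tested. Conventional DC2 (cDC2) were held in a Ccr2 gate and in a Ffar2 gate. The study also counted its Wdfy4-high, proliferating and Socs2+ clusters as cDC2, and Socs2 is here a marker of the mature gate. Esam, a marker of the Ffar2 gate, was not enriched in it in WT (23.4 CPM inside, 23.5 CPM outside). The Wdfy4-high gate took cells by a set of long-gene transcripts that the study named from these same samples, without Wdfy4 itself. It is a range of a score and not a cell type, since 372 WT and 684 mutant cells lay within 10% of its limit. Doublets were not removed, and 31 barcodes occurred in both libraries. Gates of at least 2 lineages were passed by 960 WT and 1289 mutant cells, where the Ccr2 and Ffar2 cDC2 gates counted as separate lineages.

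Ribosomal protein transcripts took a larger share of the UMIs of mutant cells. Over the whole library the share was 13.95% in WT (13.94% to 13.96%) and 17.90% in mutant cells (17.89% to 17.90%), a log2 ratio of 0.36. The median cell had 11.2% in WT and 16.5% in mutant. Cells in which the genes took under 5% of UMIs made up 29.8% of WT and 16.5% of mutant cells. Cells with over 30% made up 5.40% and 3.31%. At a common mix of gates in both libraries the shares were 15.0% and 17.3%, a log2 ratio of 0.21.

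**Figure D1:**
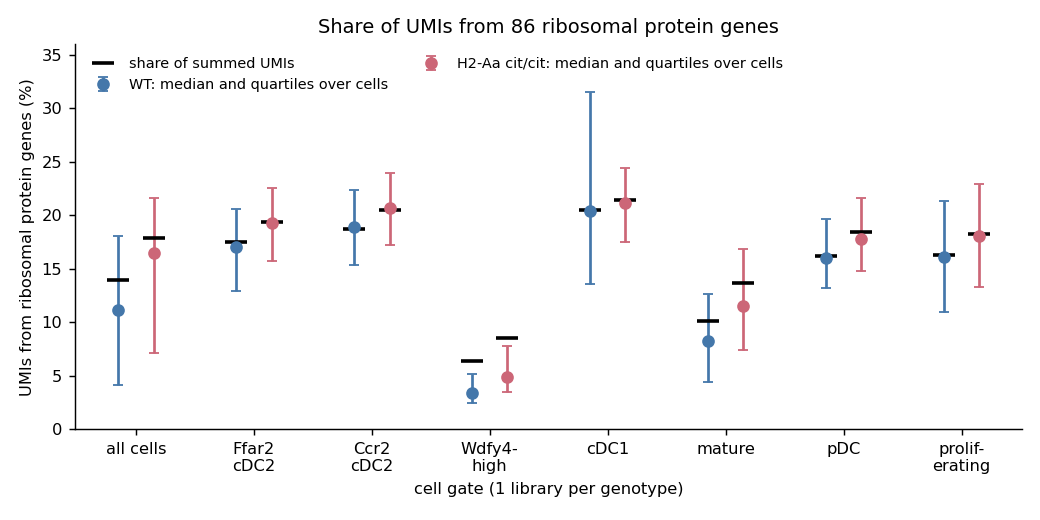
Share of UMIs from the 86 ribosomal protein genes (y axis, percent) in all cells and in 7 marker gates (x axis), in the WT and the mutant (H2-Aa cit/cit) library. Points and bars give the median and quartiles over cells and black dashes the share of summed UMIs; the Wdfy4-high gate had the lowest shares in both libraries (6.41% and 8.53%), and the summed share was higher in the mutant in every gate shown.

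Among the gates, the share of summed UMIs was lowest in the Wdfy4-high gate, at 6.41% in WT and 8.53% in mutant cells. This gate takes cells by the share of other transcripts among the same UMIs, which by itself favours a low ribosomal protein share. Over all cells both shares had a Spearman's ρ of -0.52 in WT and -0.55 in mutant. The mature gate came next, with 10.1% in WT and 13.7% in mutant cells. Among the 7 gates these also had the largest ratios between the libraries, 0.41 (0.41 to 0.42) and 0.44 (0.43 to 0.44) on the log2 scale. A gate for monocytes, outside these 7, had 13.6% in WT (519 cells) and 17.3% in mutant (518 cells), a log2 ratio of 0.35. The share was 17.5% and 19.4% in the Ffar2 cDC2 gate, 18.7% and 20.5% in the Ccr2 cDC2 gate, 16.2% and 18.4% in the pDC gate and 16.3% and 18.3% in the proliferating gate, with log2 ratios of 0.13 to 0.18. The Ccr2 cDC2 ratio of 0.13 was 0.063 without cells of several lineage gates, which include those of both cDC2 gates, and 0.037 with doubled marker minima. The proliferating ratio of 0.16 was 0.066 in cells of 5000 to 10000 UMIs. In the cDC1 gate the share was 20.5% and 21.4%, the highest level in both libraries and the smallest ratio, 0.061 (0.057 to 0.064). This place as the smallest ratio depended on the gate rule. The Ccr2 cDC2 ratio was the smallest with doubled marker minima, and also with cells assigned by their highest marker z-score.

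The median UMIs per cell of ribosomal protein genes and of all other genes differed between the libraries by unlike amounts. In the Ffar2 cDC2 gate the median cell held 1237 ribosomal protein UMIs in WT and 1250.5 in mutant, beside 6074 and 5180 UMIs of other genes. The mature gate had 554 and 616 ribosomal protein UMIs per cell, beside 5741 and 4655.5 UMIs of other genes. In the Wdfy4-high gate the median cell held only 89 in WT and 95 in mutant, beside 2985 and 2301. The median share of its cells was 3.41% and 4.85%, below the share of summed UMIs. In the Ccr2 cDC2 gate both were lower in mutant cells, with 1802 and 1657.5 ribosomal protein UMIs beside 7872 and 6260.5 others. The pDC gate had 2129 and 1570 beside 10020 and 6633, and the cDC1 gate 1853 and 2830.5 beside 5535.5 and 10184. Malat1, a nuclear long noncoding RNA, took 5.83% of UMIs in WT and 4.34% in mutant mature cells, and 3.36% and 1.85% in the pDC gate. It took 2.97% and 2.85% in the Wdfy4-high gate and 2.90% and 3.22% in cDC1. Across the WT cells of the mature gate the ribosomal protein share had a Spearman's ρ of -0.47 with the Malat1 share (1907 cells) and across the mutant cells -0.68 (1396 cells). This ρ was -0.82 in WT and -0.46 in mutant cDC1, -0.15 and -0.17 in the Wdfy4-high gate, and negative in the other gates too. Both shares come from the same UMIs of a cell. The part of RNA quality or nuclear RNA in the differences was not tested.

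Depth and share were linked in some gates. Over single cells their ρ was 0.32 in all WT and 0.50 in all mutant cells, 0.31 and 0.41 in the mature gate, -0.04 and 0.25 in cDC1 and 0.04 and 0.05 in the proliferating gate. In cells of 5000 to 10000 UMIs the share was 17.6% in WT and 19.8% in mutant cells of the Ffar2 cDC2 gate, 10.1% and 13.6% in the Wdfy4-high gate, and 10.2% and 14.0% in the mature gate. In the shallowest cells, of 500 to 2000 UMIs, the order over all cells was reversed, with 9.61% in WT (1115 cells) and 8.24% in mutant (1753 cells). The Ffar2 cDC2 gate had 9.70% in WT (26 cells) and 7.60% in mutant (46 cells) at this depth. The mutant was higher there in the Wdfy4-high gate (5.09% and 5.75%) and the mature gate (9.20% and 9.66%). The cDC1 gate changed direction with depth. Its share was 21.5% in WT and 13.5% in mutant cells of 2000 to 5000 UMIs, 25.6% and 20.5% in those of 5000 to 10000 UMIs, and 18.8% and 21.8% in those above 10000 UMIs.

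**Figure D2:**
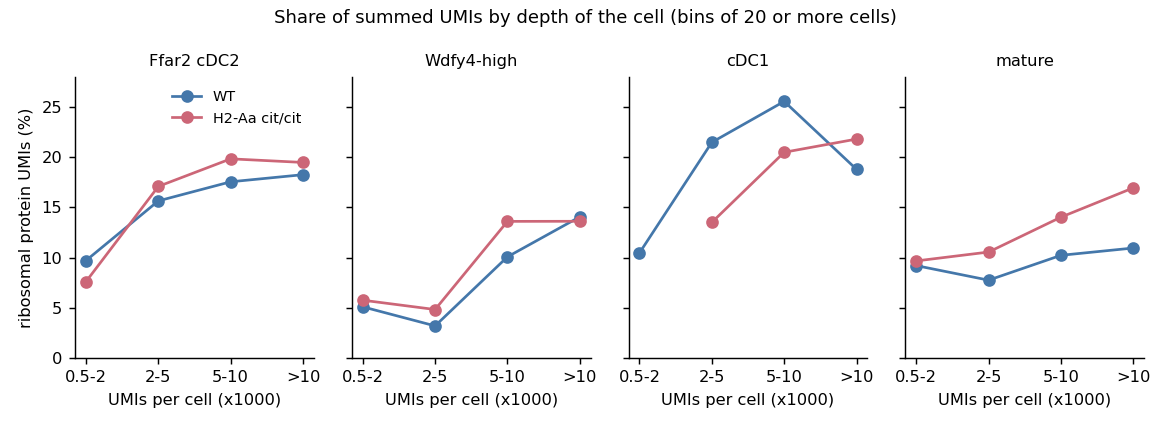
Share of summed UMIs from ribosomal protein genes (y axis, percent) by the number of UMIs of the cell (x axis, in units of 1000) in 4 gates; each point is the sum over the cells of a bin in 1 library. The mutant was above WT in the 3 bins from 500 to 10000 UMIs of the Wdfy4-high gate and in all 4 bins of the mature gate, and below WT in cDC1 of 2000 to 10000 UMIs.

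The WT cDC1 gate held some cells very rich in these transcripts. More than 30% of UMIs came from ribosomal protein genes in 150 of 538 WT cells (27.9%), against 35 of 716 mutant cells (4.89%). Its upper quartile was 31.5% in WT and 24.4% in mutant. Median depth also differed, at 7298 and 13077 UMIs per cell. Leaving out cells above 30%, a choice on the measured share itself that removes more WT than mutant cells, gave a log2 ratio of the cDC1 share of 0.27. As a mean over cells, which gives deep and shallow cells the same weight, it was -0.059, against 0.061 for the summed UMIs. The sign in cDC1 thus differed between the mean and the sum. Cells outside the cDC1 gate held more of its markers in WT than in mutant. Their CPM were 29.6 against 14.1 for Xcr1, 57.9 against 26.8 for Clec9a and 150.2 against 43.0 for Cadm1. Whether WT cells of other kinds passed the cDC1 gate, or were among those above 30%, was not tested.

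Nearly all of the genes had a ratio above 0 outside the cDC1 gate. A gene is called higher or lower here where its log2 ratio was at least 0.32 in size, among genes of at least 50 CPM in either library and without a test. In whole libraries 56 of 81 members were higher in mutant cells and 0 lower, where of all 3953 such genes 14.2% were higher and 16.9% lower. The median log2 ratio was 0.36 for the members and -0.02 for all genes.

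In the Wdfy4-high gate 71 of 81 members were higher and 0 lower, with a median log2 ratio of 0.41, while 9.01% of all genes were higher and 7.01% lower and their median was -0.03. The mature gate likewise had 71 members higher and 1 lower, with a median of 0.46, against 17.5% and 15.3% of all genes and a median of -0.01. Without the mature cells that also passed the cDC1 gate (171 in WT, 35 in mutant), the log2 ratio of the summed share in the mature gate was 0.41. The members are not independent of one another, so these counts are not separate observations beside the ratio of the summed share. The counts also rest on a limit close to the members' ratios. At 1.5-fold, 1 member was higher in all cells (3.87% of all genes), 1 in the Wdfy4-high gate (1.7%) and 5 in the mature gate (4.82%).

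Members passed this limit rarely in the other gates, although most had a ratio above 0. In the Ffar2 cDC2 gate 2 members were higher and 0 lower (all genes 6.17% and 5.31%), and 78 of 81 were above 0, with a median of 0.14. In the Ccr2 cDC2 gate 1 was higher and 0 lower (all genes 7.58% and 8.12%), 77 were above 0 and the median was 0.13. The pDC gate had 3 higher and 0 lower (19.4% and 16.4%) with 78 above 0, and the proliferating gate 0 higher and 0 lower (7.79% and 6.55%) with 77 above 0. In cDC1 4 members were higher and 0 lower (16.8% and 16.1%), and 51 of 81 were above 0. In these 5 gates the share of members past the limit lay below that of all genes. All genes reach down to 50 CPM, where counting error is larger than for most members. The median ratio of the members lay above that of 82.0% of the genes outside the list in the Ffar2 cDC2 gate. This was 77.1% in the Ccr2 cDC2, 67.1% in the pDC, 80.2% in the proliferating and 60.4% in the cDC1 gate. With the marker minima of the gates doubled, 15 of 81 members were higher in cDC1, where 17.8% of all genes were. Of the genes outside the list, 43.7% had a ratio above 0 in the Ffar2 cDC2 gate and 46.2% in cDC1.

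**Figure D3:**
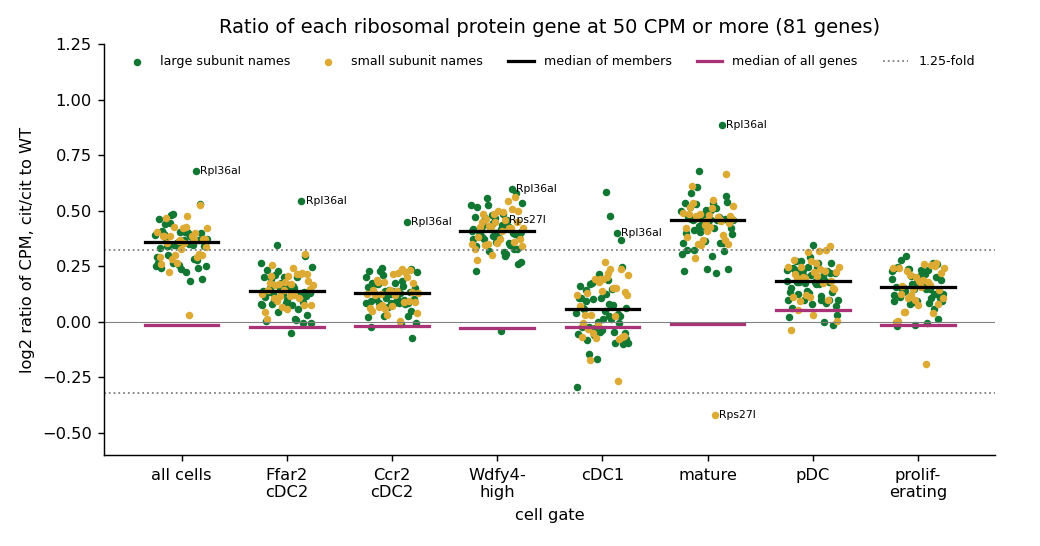
Log2 ratio of CPM, mutant to WT (y axis), of the 81 ribosomal protein genes with at least 50 CPM in all cells and in 7 gates (x axis); each point is a gene, black and purple lines are the medians of the members and of all genes, and dotted lines mark a log2 ratio of 0.32 in either direction. Members lay above the upper dotted line in the Wdfy4-high and mature gates (71 of 81 in each), and Rps27l was the single gene below the lower one, in the mature gate.

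The subunits were alike. Large subunit names took 54.1% of ribosomal protein UMIs in WT and 53.8% in mutant cells, and between 53.5% and 54.6% in each gate and library. The median log2 ratio in all cells was 0.36 for 49 large and 0.37 for 32 small subunit genes. Across single cells of a gate, the share of large and that of small subunit genes had a ρ of 0.89 to 0.99, again from the same UMIs. Over the 77 main genes, coding length had a ρ with the ratio between -0.23 and 0.23 over the gates and all cells, as a description of genes that are not independent.

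The 5 genes with the most UMIs were Rps24, Rps27a, Rplp1, Rpl23 and Rpl13, counted from 3′ ends, where each molecule counts once whatever its length. Rps24, of the small subunit, was at 3663 CPM in WT and at 4685 CPM in mutant cells, a log2 ratio of 0.35. Rps27a, made as a fusion to ubiquitin, was at 3065 and 4059 CPM (0.41). Rplp1, one of the acidic stalk proteins that engage elongation factors, was at 3145 and 3777 CPM (0.26). Rpl23 was at 2869 and 3908 CPM (0.45) and Rpl13 at 2883 and 3814 CPM (0.40). All 5 had a ratio above 0 in each of the 7 gates, mostly short of 0.32 outside the Wdfy4-high and mature gates, and Rplp1 in pDC differed by no more than counting error (3552 and 3605 CPM, log2 ratio 0.02, -0.03 to 0.07).

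Among members of at least 50 CPM, Rpl36al had the highest ratio in 4 gates, both cDC2 gates, Wdfy4-high and mature. It is a copy of Rpl36a that encodes a nearly identical protein of the large subunit. In the Ffar2 cDC2 gate it was at 569.9 CPM in WT and at 829.8 CPM in mutant cells, a log2 ratio of 0.54 (0.49 to 0.59). The ratio was 0.45 in the Ccr2 cDC2 gate, 0.60 in the Wdfy4-high gate, 0.40 in cDC1 and 0.89 (0.82 to 0.95) in the mature gate, where it stood at 281.9 and 521.6 CPM. Rpl36a itself was at 697.6 and 765.1 CPM in the Ffar2 cDC2 gate (0.13) and at 363.9 and 521.0 CPM in the mature gate (0.52). Cells of the mutant library thus held more Rpl36al than Rpl36a UMIs in the Ffar2 cDC2 gate, and WT cells fewer.

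Other genes with high ratios came up in several gates, which all compare the same pair of libraries and are no independent repeats. Rps18 of the small subunit head, Rpl12 of the stalk base and Rpl35 near the exit of the peptide tunnel were each among the 5 highest in at least 4 of 5 DC gates. In the Ffar2 cDC2 gate Rpl35 was at 767.0 and 974.3 CPM (log2 ratio 0.35), Rps18 at 1931 and 2388 CPM (0.31), Rpl12 at 1642 and 2016 CPM (0.30) and Rpl10, which joins the large subunit late, at 1873 and 2251 CPM (0.27). Rps20 was among the 5 highest in the Ccr2 cDC2 gate (0.24) and the Wdfy4-high gate (0.55). In the mature gate Rpl15 was at 705.4 and 1127 CPM (0.68).

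At the other end were Rpl7l1 (-0.05 in the Ffar2 cDC2 and -0.04 in the Wdfy4-high gate, with intervals that included 0), Rpl5, Rpl7a, Rplp2 and Rpl23a. Rpl5, which binds the 5S ribosomal RNA, was at 1443 and 1446 CPM in the Ffar2 cDC2 gate, a log2 ratio of 0.00 (-0.03 to 0.04). Rpl7a there was at 1028 and 1024 CPM, Rpl9 at 2245 and 2238 CPM and Rplp2, the partner of Rplp1, at 2524 and 2541 CPM. Their intervals all included 0. Rpl23a was at 1842 and 1753 CPM in the Ccr2 cDC2 gate, a ratio of -0.07 (-0.12 to -0.03). In the Wdfy4-high gate genes of this group had low but positive ratios, 0.23 for Rpl5, 0.26 for Rpl23a, 0.27 for Rpl7a and 0.28 for Rps3a1. In the mature gate Rplp2 (0.22), Rplp1 (0.23), Rpl41 (0.24) and Rpl23a (0.24) were low.

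In cDC1 the order differed. Rpl37a was at 2643 CPM in WT and at 2159 CPM in mutant cells, a log2 ratio of -0.29 (-0.32 to -0.26). Rps26, which lies near the path of the mRNA on the small subunit, was at 2701 and 2245 CPM (-0.27). Rpl37 (-0.17), Rps28 (-0.17) and Rpl11 (-0.15), the partner of Rpl5 on the 5S ribosomal RNA, also had ratios below 0, and none of these genes reached -0.32. Highest among members of at least 50 CPM were Rpl7l1 (0.58), Rpl22l1 (0.48), Rpl36al (0.40), Rpl12 (0.37) and Rps24 (0.27). The wide split of WT cDC1 by ribosomal protein share and depth, given above, touches each of these values.

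In all, 8 members lie on chromosome 17, which holds H2-Aa (GRCm38, chr17:34282744-34287823, minus strand). Rps18 lies 0.327 Mb from it and Rps28 0.458 Mb, and these were the only members within 1 Mb. Rps18 was among the highest members, as given above. Rps28 was at 1734 and 2029 CPM in all cells, a log2 ratio of 0.23, below the median member. The others in all cells were Rpl10a (0.40), Rps10 (0.39), Rpl36 (0.37), Rps2 (0.29), Rpl7l1 (0.23) and Rpl3l, which had 51 and 40 UMIs.

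RefSeq starts (GRCm38.p6) were found for 66 of the 86 members. A TOP start, read as a C at the first transcribed base and at least 5 further C or T, was present at a listed start of 12 of the 66 (18.2%) and of 2.05% of all 27025 symbols in the table. Listed starts are often a few bases off, so absence at a start says little about the transcript. The ETS motif CCGGAAG, on either strand of the 300 bases around the start, was in 39.4% of the members and 9.93% of all symbols. The motif AAGATGGC of YY1 was in 9.09% and 3.19%. No listed start of Rps27l, of the Rps27 family, had a TOP start. The lines that follow give 10 bases before and 20 bases from the start, on the strand that is transcribed, with a TOP tract in capitals. They show Rps27, Rps27rt and some of the members with high ratios, leaving out Rpl12 and Rps20 among others. They are no measure of how often members have a TOP start.
Rps18: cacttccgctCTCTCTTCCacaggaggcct
Rpl35: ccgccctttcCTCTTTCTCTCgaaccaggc
Rpl15: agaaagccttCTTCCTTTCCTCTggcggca
Rpl36al: ccgtcgctcaggttcagttccgacttccgc
Rps27: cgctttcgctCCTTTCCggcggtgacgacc
Rps27rt: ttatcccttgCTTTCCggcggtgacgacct
These lie at chr17:33955646-33955675 (Rps18, minus strand), chr2:39005112-39005141 (Rpl35, minus), chr14:18270967-18270996 (Rpl15, minus), chr12:69184048-69184077 (Rpl36al, minus), chr3:90213629-90213658 (Rps27, minus) and chr9:114982720-114982749 (Rps27rt, minus). Rps18, Rpl35 and Rpl15 had a TOP tract at the listed start and Rpl36al had none. The 11 members with such a start and at least 50 CPM had a median log2 ratio of 0.47 in the mature gate and 0.17 in the Ffar2 cDC2 gate, beside 0.43 and 0.12 for the 50 members in the table without one.

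The paralogs outside the main set differed from one another. Rps27rt is a retrotransposed copy of Rps27 and the first 50 transcribed bases of both hold a shared run of 38 bases. The 3′ ends, from which UMIs are counted, were not compared, and how reads of the pair were assigned was not tested. It was at 28.9 CPM in WT and at 25.2 CPM in mutant cells, a log2 ratio of -0.20 (-0.30 to -0.10), and below 0 in all 7 gates, with an interval that excluded 0 in the Ffar2 cDC2 (-0.39), cDC1 (-0.62) and proliferating (-0.40) gates. Rps27 was at 1604 and 1925 CPM (0.26). Rpl22l1, the paralog of Rpl22, was at 226 and 296 CPM (0.39), and its ratio was 0.01 in the Ffar2 cDC2 gate, 0.48 in cDC1 and 0.51 in the mature gate. Rpl22 had 0.08, -0.05 and 0.36 in the same gates.

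Rpl7l1 was at 63.8 and 74.6 CPM (0.23). Rps19bp1 was at 15.8 and 23.3 CPM (0.55, 0.43 to 0.68). Rpl39l, known from testis, had 70 and 200 UMIs, of which 42 and 62 lay in the mature gate, and Rpl3l, known from muscle, had 51 and 40. Rpl10l had 0 UMIs in both libraries, where 3 UMIs correspond to 0.0588 CPM in WT and 0.0413 CPM in the mutant. The 5 hyphenated pseudogene symbols left out by the rule held 2126 and 3393 UMIs, 0.0299% and 0.0261% of those of the members.

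Rps27l, a paralog of Rps27 and known target of p53, was the one member past the limit in opposite directions. In the mature gate it was at 182.6 CPM in WT (2443 UMIs) and 136.6 CPM in mutant cells (1137 UMIs), a log2 ratio of -0.42 (-0.52 to -0.32). In the Wdfy4-high gate it was at 52.1 and 71.6 CPM, a ratio of 0.46 (0.25 to 0.67) from 313 and 461 UMIs. That ratio was near the median member of the Wdfy4-high gate (0.41), where Rps27l took 0.0813% and 0.0839% of member UMIs. In the mature gate it took 0.181% and 0.0998%, and the median member had a ratio of 0.46. Rps27l was at 300.8 and 264.0 CPM in the proliferating gate (-0.19) and at 245.5 and 289.7 CPM in cDC1 (0.24).

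The makeup of the ribosomal protein transcripts differed between gates in a few genes, in both libraries. Of 80 members with at least 200 UMIs in each gate and library, the SD over the 7 gates of the log2 share among member UMIs had a median of 0.10 and ranged from 0.04 to 0.42. Rpl31, at the exit of the peptide tunnel, varied most. It took 0.619% of ribosomal protein UMIs in WT and 0.665% in mutant pDC, and 0.263% to 0.408% in the other 6 gates. Rpl28 took 1.49% and 1.34% in cDC1, 1.41% and 1.33% in pDC and 1.38% and 1.35% in the proliferating gate. It took 0.963% and 0.977% in the mature gate and 0.905% and 0.983% in the Wdfy4-high gate.

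**Figure D4:**
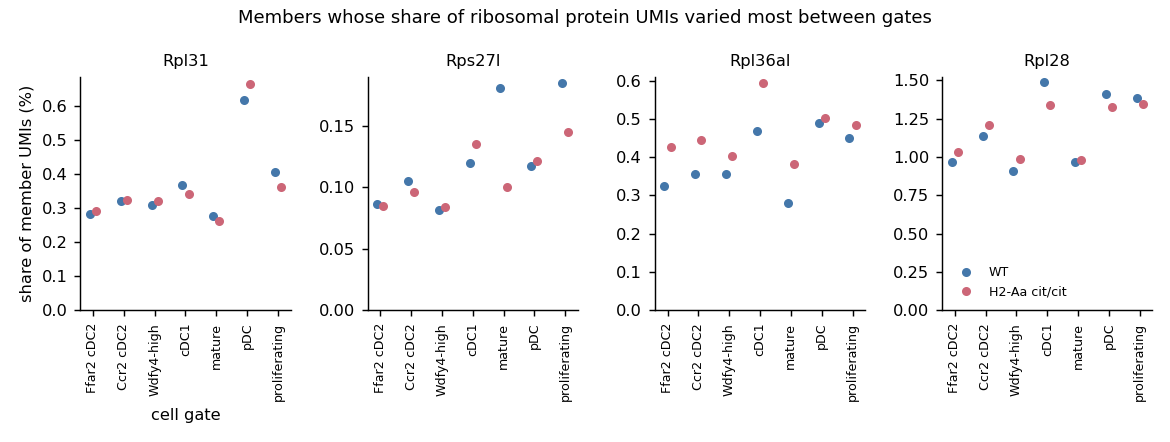
Share of ribosomal protein UMIs (y axis, percent) held by 4 of the genes whose share varied most between the 7 gates (x axis), as 1 point per library. Rpl31 was highest in pDC in both libraries, and Rps27l was higher in WT (0.181%) than in mutant (0.0998%) mature cells.

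Rps27l took 0.181% in WT and 0.0998% in mutant mature cells, and Rpl36al 0.279% and 0.381%, so these differed between the libraries as well as between gates. Over 80 members, the deviation of a gate from the mean of the gates had a Pearson's r between WT and mutant of 0.70 in cDC1 and 0.83 to 0.97 in the other 6 gates, across genes that are not independent.

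Other genes of translation were grouped by role, and only those of at least 50 CPM in either library were used. In the mature gate these were 16 of 78 mitochondrial ribosomal protein genes and 7 of 35 ribosome biogenesis genes. A gene near the minimum can pass it through the library where it is higher, which favours ratios away from 0. Counts of higher genes in these lists are to be read against the shares of all genes given above. These were 17.5% in the mature, 9.01% in the Wdfy4-high, 6.17% in the Ffar2 cDC2, 16.8% in the cDC1 and 7.79% in the proliferating gate. The 14 translation factors of the TOP class, among them Eef1a1, Eef2 and Pabpc1, had medians of 0.29 in the Wdfy4-high gate (4 higher), 0.32 in the mature gate (6 higher) and 0.04 in the Ffar2 cDC2 gate (0 higher), with 0 lower. Mitochondrial ribosomal proteins, which serve a separate ribosome, had a median of 0.43 in the mature gate (11 of 16 higher), 0.14 in the Ffar2 cDC2 gate (0 of 26) and -0.04 in the proliferating gate (0 of 36). Ribosome biogenesis genes had 0.40 in the mature gate (4 of 7 higher), 0.09 in the Wdfy4-high gate (0 of 9) and -0.08 in the proliferating gate (0 of 15). Initiation factors had 0.35 in the mature gate (8 of 16 higher), 0.17 in the Wdfy4-high gate (4 of 16) and 0.05 in the Ffar2 cDC2 gate (2 of 21). In cDC1 they had 0.29 (11 of 24), where the members had 0.059. Their list also held Eif4ebp1, whose protein holds back cap-dependent translation. It is among the higher genes counted in the Ffar2 cDC2 and cDC1 gates. Host RNAs of small nucleolar RNAs had 0.28 in the mature gate (1 of 3 higher), 0.24 in the Ffar2 cDC2 gate (1 of 3) and 0.46 in cDC1 (4 of 5). Factors of ribosome rescue had -0.11 in the mature gate and -0.05 in the Wdfy4-high gate, with 0 of 2 and 0 of 5 past the limit.

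**Figure D5:**
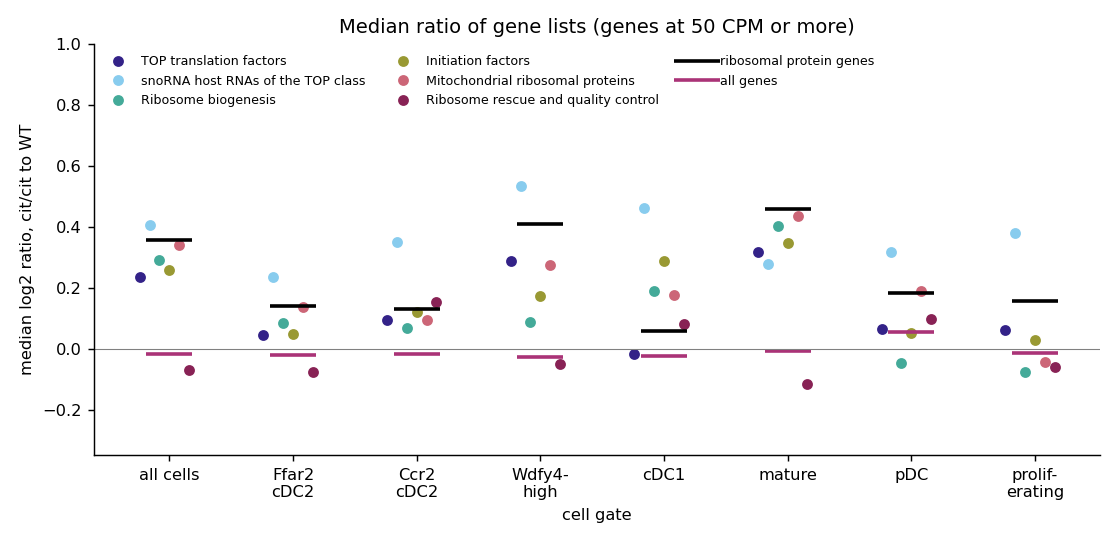
Median log2 ratio, mutant to WT (y axis), of 6 lists of translation genes with at least 50 CPM in all cells and in 7 gates (x axis); black and purple dashes are the medians of the ribosomal protein genes and of all genes. The mitochondrial ribosomal proteins lay close to the black dash in the mature gate (0.43) and the initiation factors above it in cDC1 (0.29).

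Gas5 and Eif4ebp1 were the genes of these lists past the limit of 0.32 in both cDC2 gates. Gas5, a TOP-class RNA that hosts small nucleolar RNAs, was at 318.1 CPM in WT and at 431.9 CPM in mutant cells of the Ffar2 cDC2 gate (log2 ratio 0.44, 0.37 to 0.51) and at 373.7 and 476.5 CPM in the Ccr2 cDC2 gate (0.35). In the mature gate it was at 324.6 and 344.4 CPM (0.09). Eif4ebp1 encodes 4E-BP1, which holds back cap-dependent translation until mTOR phosphorylates it. It passed the minimum of 50 CPM in both cDC2 gates and in cDC1 through the mutant library alone, so the minimum favours a high ratio here. It was at 28.1 and 53.4 CPM in the Ffar2 cDC2 gate (0.92, 0.70 to 1.16), at 34.4 and 55.4 CPM in the Ccr2 cDC2 gate (0.69) and at 42.0 and 205.3 CPM in cDC1 (2.29, 2.08 to 2.50). In all cells it was at 23.0 and 70.0 CPM, from 1175 and 5089 UMIs.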

How the data were processed

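The authors sorted splenic CD11c+ cells, made 1 10x library per genotype and aligned reads with Cell Ranger 5.0.1 to mm10 (GRCm38), per the labels and the study's methods. The submitters' processing notes also name Seurat. Whether intronic reads were counted is not given in the sources used here. The deposited values are raw UMI counts per gene and cell, with no normalization by the authors.

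UMIs of the members were summed per cell, gate and library. CPM were scaled to the UMI total of the gate. Gates required a minimum sum of marker UMIs, set per gate (3 for cDC1, 4 for mature, 6 for pDC, 5 for proliferating, 4 for Ccr2 cDC2, 3 for Ffar2 cDC2), or, for Wdfy4-high, the top 20% of cells by share of its transcripts. Cells passing several were assigned in a fixed order, and gates for neutrophils, macrophages, monocytes, NK, T and B cells were removed first. The order was then pDC, proliferating, mature, cDC1, Ccr2 cDC2, Wdfy4-high and Ffar2 cDC2. Shares have exact Clopper-Pearson intervals, CPM exact Poisson intervals and log2 ratios exact conditional binomial intervals, at 95%. UMIs of 1 library are not independent of its pooled mice, so intervals cover counting error only. A gate of interest was compared at 50 or more cells in each library. No test between genotypes was made. The members, the lists and the gates were chosen with earlier results of these data known. Named genes were the 5 highest and 5 lowest ratios in the Ffar2 cDC2, Ccr2 cDC2, Wdfy4-high, cDC1 and mature gates, the 5 with most UMIs, all paralogs, the 5 most variable shares, the members on chromosome 17 or near H2-Aa, and list genes past a log2 ratio of 0.32 in both cDC2 gates. Main genes set beside a paralog (Rpl36a, Rps27, Rpl22) were added after their values were seen. Results that need a few of these genes, with 1 gene list, are not reported here.

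Alternatives were another denominator or scaling, other folds and CPM minima, other sets of cells and other gate rules. Leaving out shared barcodes, a depth window, leaving out cells over 30% and leaving out mature cells of the cDC1 gate were chosen after seeing the data. The ratio and its interval were checked on simulated counts with counting error alone, which hold no variation between cells, mice or libraries. Python 3.11.15, numpy 2.4.6, scipy 1.17.1, pandas 2.3.3 and matplotlib 3.10.9 were used.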

Additional observations from a re-analysis of the deposited data

Results flagged for a closer look

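The log2 ratio of Rps27l, mutant to WT, was 0.46 in the Wdfy4-high gate and -0.42 in the mature gate, past the limit of 0.32 in opposite directions. The median member had 0.41 in the Wdfy4-high gate and 0.46 in the mature gate, so only the mature value went against the other members. With 1 library per genotype the difference between the gates was not tested. Its UMIs in WT and mutant cells were 313 and 461 in the Wdfy4-high gate and 2443 and 1137 in the mature gate.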

How the results depend on the processing

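Of 72 recomputed log2 ratios of the ribosomal protein share, 69 were above 0 as in the report. The 3 others were in cDC1, at -0.049 without the 5% of cells with most UMIs, -0.059 as a mean over cells and -0.32 in cells of 5000 to 10000 UMIs. Values below are in the order all cells, Ffar2 cDC2, Ccr2 cDC2, Wdfy4-high, cDC1, mature, pDC and proliferating, leaving out those within counting error of the report. The cause of each move was not tested. No paired analysis was possible because each genotype has 1 library, and no library could be left out for the same reason.

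At a common mix of gates the ratio in all cells was 0.21. In cells of 5000 to 10000 UMIs the ratios were 0.39, 0.18, 0.14, 0.43, -0.32 (cDC1), 0.46 and, for proliferating cells, 0.066, and the pDC gate held too few cells. As a mean over cells they were 0.31, 0.16, 0.14, -0.059 (cDC1), 0.39 (mature), 0.12 and 0.13. With cells assigned by their highest marker z-score they were 0.22, 0.055, 0.44, 0.15, 0.35, 0.23 and 0.17 in the 7 gates, and with doubled marker minima 0.18, 0.037, 0.38, 0.20, 0.39, 0.13 and 0.17. Without cells over 30% they were 0.42, 0.17, 0.13, 0.27 (cDC1), 0.46 (mature) and 0.18 (proliferating). Without cells of at least 2 lineage gates they were 0.39 in all cells, 0.063 in Ccr2 cDC2, 0.029 in cDC1 and 0.14 in proliferating cells, and the pDC gate then held too few cells. Without the 5% of cells with most UMIs they were 0.35 in all cells, -0.049 in cDC1, 0.42 in mature, 0.14 in pDC and 0.15 in proliferating cells. Without mature cells of the cDC1 gate the mature ratio was 0.41. Leaving out cells of shared barcodes or of over 10% mitochondrial UMIs moved no ratio beyond counting error.

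The counts of members past the limit rest on where it lies. At 1.5-fold, 1 member was higher in all cells, 0 in both cDC2 gates, 1 in Wdfy4-high, 0 in cDC1, 5 in mature and 0 in pDC, and 0 were lower in mature. The settings chosen after seeing the data were not used for these counts. Under the other planned settings, the Wdfy4-high and mature counts of higher members stayed within 1.5 times of 71. Scaled to the UMIs of other genes, 4 were higher in Ffar2 cDC2, 6 in pDC and 1 in proliferating cells. Median-ratio scaling gave 0 in pDC. From 10 CPM, 2 were higher in Ccr2 cDC2 and 1 lower in each of Ffar2 cDC2, cDC1 and proliferating cells. With no minimum, 4, 3 and 2 were higher in Ffar2 cDC2, Ccr2 cDC2 and proliferating cells, 1 was lower in each of all cells, Ffar2 cDC2, Ccr2 cDC2, pDC and proliferating cells, and 2 in cDC1 and in mature. By z-score 4, 7 and 1 were higher in Ffar2 cDC2, pDC and proliferating cells. Doubled minima gave 15 higher in cDC1 and 1 lower in Wdfy4-high. As a mean over cells 2 were higher and 4 lower in cDC1 and 0 higher in pDC. Without the 5% of cells with most UMIs 2 were higher and 2 lower in cDC1 and 1 higher in pDC. Without cells of at least 2 lineage gates 1 was lower in Ccr2 cDC2 and 2 in cDC1. No named member called past the limit changed sign under the scalings, planned sets of cells or gate rules tried. The depth window and the other settings chosen after seeing the data were not applied to single members.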
